A study of Mus musculus with 12 samples.

Results

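REV-ERBα, REV-ERBβ and RORα are nuclear receptors that bind the same DNA element, the ROR response element (RORE), and their transcripts were followed here in the kidney of mice given cannabidiol (CBD). The genes are Nr1d1 (REV-ERBα), Nr1d2 (REV-ERBβ) and Rora (RORα), which were chosen by symbol with earlier results of these data known. They are 3 of the 57180 Ensembl genes counted, and all 3 were among the 17163 genes that passed the filter on low counts. Because expression in these same groups entered the choice, the differences of the 3 receptors between groups are given as a description, with the standard error (SE), and no p-value or conclusion is drawn from them.

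The mice were male C57BL/6J animals that received an intraperitoneal injection every day for 28 days. Control mice (n = 4) received the vehicle alone, saline with Tween 80, the 10CBD mice (n = 4) received 10 mg CBD per kg of body weight in that vehicle, and the 20CBD mice (n = 4) received 20 mg. All groups therefore shared the vehicle and the injections, no genotype was altered, and each library was poly(A) RNA from kidney of 1 mouse. The time of day of killing is not given in the sources used here.

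REV-ERBα and REV-ERBβ repress transcription at ROREs by recruiting the corepressor NCoR with the histone deacetylase HDAC3, and heme is their ligand. The ROR receptors activate transcription from the same elements, so the balance of both families sets the output of RORE genes such as Bmal1. CLOCK and BMAL1 in turn drive Nr1d1 and Nr1d2 through E-boxes, which closes a feedback loop of the circadian clock, and in kidney, as in other organs, transcripts of this loop rise and fall over the day.

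In GENCODE vM39 (GRCm39), Nr1d1 (ENSMUSG00000020889) lies on the minus strand of chromosome 11 from 98658752 to 98666188, with 3242 bases of exon. Nr1d2 (ENSMUSG00000021775) lies on the plus strand of chromosome 14 from 4230545 to 4266624, with 9049 bases of exon. Rora (ENSMUSG00000032238) is far longer, on the plus strand of chromosome 9 from 68561068 to 69295528, with 14471 bases of exon. Reads counted on a gene come from its exons, and 1694 exon bases of Nr1d1, 52.3% of its exon length, are shared with Thra, the thyroid hormone receptor gene on the opposite strand. The strand setting of the counting is not given in the sources used here, so reads of Nr1d1 and Thra in the shared exons may not have been told apart. Rora shares 156 exon bases with Gm15511, a non-coding RNA gene with at most 8 counts in any library, and Nr1d2 shares no exon bases with another gene.

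The DNA just before the start of both REV-ERB genes is shown because these were the members with higher expression in CBD mice, and stretches at the starts of 3 RORE-regulated clock genes are shown because they hold the searched elements. Sequences are from RefSeq for GRCm38.p6, a different build from the gene positions above, and run 5′ to 3′ on the strand of the gene in that build. Nr1d2 is listed on the minus strand in GRCm38.p6 and on the plus strand in GRCm39. Capitals mark a searched element. The elements were AGGTCA (RORE hexamer), TAGGTCA or TGGGTCA (RORE core, the first of which contains the hexamer), CACGTG (E-box) and TTATGTAA or TTACGTAA (D-box), each looked for on both strands from 250 bases before to 50 bases after the start.
Nr1d1, chr11:98775378-98775627, minus strand: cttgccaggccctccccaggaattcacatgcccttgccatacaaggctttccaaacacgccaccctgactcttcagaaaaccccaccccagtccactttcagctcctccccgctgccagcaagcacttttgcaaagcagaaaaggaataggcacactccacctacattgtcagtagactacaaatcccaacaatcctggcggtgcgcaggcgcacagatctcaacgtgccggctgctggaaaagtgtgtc
Nr1d2, chr14:18239107-18239356, minus strand: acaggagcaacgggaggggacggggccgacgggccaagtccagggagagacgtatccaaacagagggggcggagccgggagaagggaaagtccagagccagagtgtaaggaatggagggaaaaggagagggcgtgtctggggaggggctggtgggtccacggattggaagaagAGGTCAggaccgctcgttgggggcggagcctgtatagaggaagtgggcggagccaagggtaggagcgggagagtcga
Bmal1, chr7:113207530-113207559, plus strand: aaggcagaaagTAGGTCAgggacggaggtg
Nfil3, chr13:52981033-52981062, minus strand: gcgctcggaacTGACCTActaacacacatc
Cry1, chr10:85185097-85185126, minus strand: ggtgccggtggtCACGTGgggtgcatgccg

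The window of Nr1d2 held the hexamer AGGTCA 77 bases before the start, and those of Nr1d1 and Rora held none of the searched letters. One of the Bmal1 starts, which RefSeq lists under Arntl, had TAGGTCA 31 bases after it, and Nfil3 had the same core on the other strand 12 bases before its start. Cry1 had an E-box 60 bases before its start, and 1 of the 3 Clock starts had the hexamer on the other strand 119 bases before it. The windows of Npas2 and Rorb held none of the letters. Of all 32851 promoters in the table, 16.3% held the hexamer, 6.45% the RORE core, 7.15% the E-box and 1.06% the D-box, and a match is a description of the letters, not evidence of binding.

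Between 15417867 and 23532088 counts on genes were recorded per library (median 18193787.5). Expression is given as CPM after TMM scaling, which are counts divided by a library size corrected for composition. Mitochondrial genes took 3.53% to 23.4% of the counts, and the share was under 10% in 4 libraries that stood apart, control replicate 2 (5.77%), 10CBD replicates 1 (3.53%) and 3 (4.55%) and 20CBD replicate 3 (5.54%). Markers of kidney tubule and podocyte, such as Kap, Slc34a1 and Umod, were abundant in every library (9 of 9 genes above 0, summed 23474 to 30860 CPM), while the summed markers of skeletal muscle stayed at or under 0.36 CPM and those of adrenal cortex at or under 5.54 CPM. In bulk tissue, fewer cells of a type and less RNA per cell cannot be told apart.

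Nr1d1 encodes the repressor REV-ERBα. Its expression was 20.7, 26.2, 31.0 and 29.3 CPM in control replicates 1 to 4. In the 10CBD mice it was 28.2, 58.1, 41.5 and 58.5 CPM, and in the 20CBD mice it was 78.5, 74.4, 40.1 and 75.9 CPM. Every 20CBD mouse thus lay above every control mouse, while 10CBD replicate 1 fell within the control range and 20CBD replicate 3 fell within the range of the 10CBD group. Group means were 26.8 ± 4.51 (SD, n = 4), 46.6 ± 14.5 and 67.2 ± 18.2 CPM in the Control, 10CBD and 20CBD groups, and the raw counts behind them ranged from 493 to 1344. The log2 difference from control was 0.80 (SE 0.24) at 10CBD and 1.33 (SE 0.24) at 20CBD, the latter a 2.51-fold higher level. Between the doses the log2 difference was 0.53 (SE 0.24), and the groups overlapped. The difference between the doses was 0.23 (SE 0.16) with the mitochondrial share as a covariate and 0.39 (SE 0.15) without the libraries in which that share was low.

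The spread of Nr1d1 within the treated groups went with the mitochondrial share. The lowest mouse of each treated group, 10CBD replicate 1 and 20CBD replicate 3, had a mitochondrial share under 10%, and the 4 libraries with a low share lay 0.014 to 0.69 below their group mean on the log2 scale. Without these 4 libraries the log2 difference of Nr1d1 was 1.11 at 10CBD, with 2 mice left in that group, and 1.50 at 20CBD. With the share as a covariate it was 0.89 at 10CBD and 1.12 at 20CBD. The part of the mitochondrial share in the spread of Nr1d1 and in its differences was not tested. Thra, which shares exons with Nr1d1, had log2 differences of 0.20 at 10CBD and 0.096 at 20CBD (edgeR, adjusted p = 0.906 and 0.916), and its groups overlapped at both doses.

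Nr1d2 encodes REV-ERBβ, the second repressor of the pair. Control replicates 1 to 4 had 42.1, 60.1, 47.9 and 48.7 CPM. The 10CBD mice had 68.4, 76.3, 69.8 and 78.2 CPM, and the 20CBD mice had 97.9, 68.5, 95.2 and 84.1 CPM. All treated mice of both doses lay above all control mice, and the 2 doses overlapped because of 20CBD replicate 2. Means were 49.7 ± 7.51, 73.2 ± 4.79 and 86.4 ± 13.4 CPM (SD, n = 4 each), with 895 to 1672 raw counts per library. The log2 difference was 0.56 (SE 0.14, 1.47-fold) at 10CBD, 0.80 (SE 0.14, 1.74-fold) at 20CBD and 0.24 (SE 0.14) between the doses. In contrast to Nr1d1, 20CBD replicate 3 had a high value of Nr1d2, and the libraries with a low mitochondrial share lay between 0.095 below and 0.28 above their group means on the log2 scale.

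Rora encodes RORα, the activator at ROREs that was most abundant in CPM among the 3 members. Its expression was nearly the same in the control replicates, with 118, 119.6, 118 and 124 CPM. The 10CBD mice had 101, 134, 91.9 and 110.1 CPM, and the 20CBD mice had 108, 101, 105 and 102 CPM. The 20CBD mice all lay below the control mice by a small distance, while the 10CBD group spread to both sides of the control range. Means were 119.8 ± 2.704, 109.2 ± 18.2 and 103.9 ± 3.12 CPM (SD, n = 4 each), with 1689 to 2808 raw counts per library. The log2 difference was -0.13 (SE 0.12) at 10CBD, -0.21 (SE 0.12) at 20CBD and -0.07 (SE 0.12) between the doses. Leaving out the 4 libraries with a low mitochondrial share moved the values for Rora to 0.024, -0.21 and -0.23, in the same order, and edgeR called Rora in none of the 3 comparisons.

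**Figure D1:**
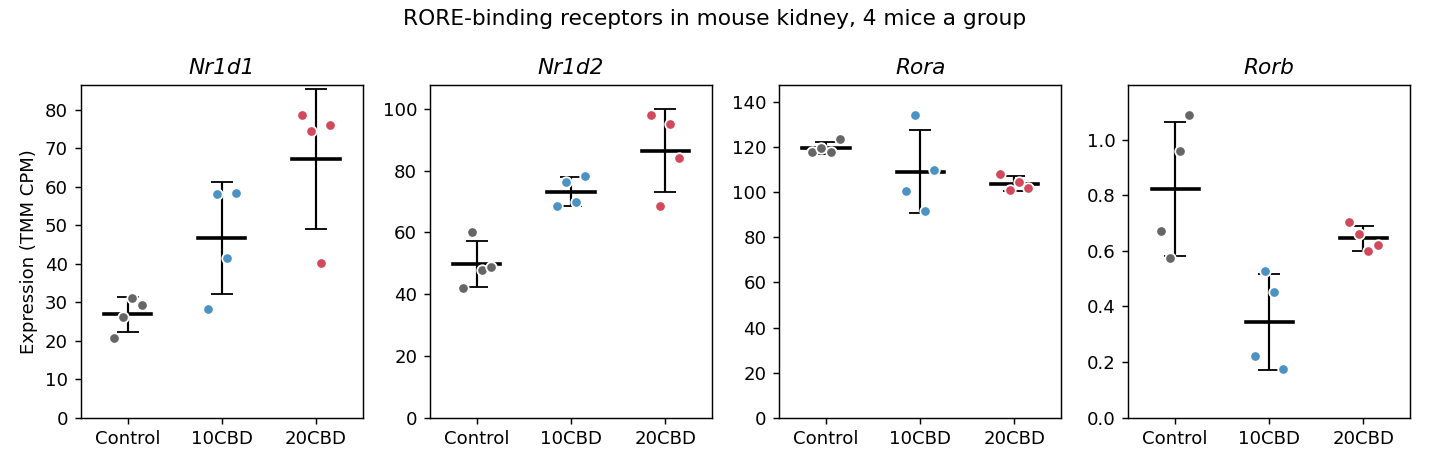
Expression of Nr1d1, Nr1d2, Rora and Rorb (TMM CPM, linear axis from 0) in the 4 mice of each group; points are mice, horizontal lines are group means and bars are SD. Means in the Control, 10CBD and 20CBD groups were 26.8, 46.6 and 67.2 CPM for Nr1d1, 49.7, 73.2 and 86.4 CPM for Nr1d2, and for Rora 119.8, 109.2 and 103.9 CPM.

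The calls of the fit across all genes (Benjamini-Hochberg adjusted p under 0.1 over 17163 genes) are given for the 3 members as counts only. At 20CBD both edgeR and DESeq2 called Nr1d1 and Nr1d2 as higher, beside 0.303% of all genes called by edgeR and 1.06% called by DESeq2. At 10CBD edgeR called 0 of the 3, beside 0.0291% of all genes, and DESeq2 called 1, Nr1d2, beside 0.233%. Nr1d1 and Nr1d2 were both called at 10CBD with no filter on low counts and without the 4 libraries with a low mitochondrial share, and Nr1d1 also with that share as a covariate. The 20CBD mice did not overlap with the control mice for 3 of 3 members, beside 5.3% of all genes (2.67% with the treated mice above), and the 10CBD mice for 1 of 3, beside 3.19% (1.55% above). An unadjusted p under 0.05 in edgeR was found for 2 of 3 members at each dose, beside 5.67% of all genes at 10CBD and 8.45% at 20CBD. Since these comparisons entered the choice of the genes, nothing is read from these counts. With 1 library left out at a time, the log2 difference at 20CBD ranged from 1.22 to 1.51 for Nr1d1, from 0.73 to 0.90 for Nr1d2 and from -0.23 to -0.19 for Rora. The call for Nr1d1 was made in 6 of the 12 fits and was lost without replicate 1, 2 or 4 of the control group or replicate 1, 2 or 4 of the 20CBD group, and the call for Nr1d2 was made in 9 fits and was lost without control replicate 1, 3 or 4. In the comparison of 20CBD with 10CBD, edgeR called 0 members and 0.0% of all genes (1083 genes, 6.31%, and 1 member at an unadjusted p under 0.05), and DESeq2 called 12 genes (0.0699%), none of them a member. With no filter on low counts, Nr1d1 was called in this comparison. The doses overlapped for all 3 members, beside 3.1% of all genes in which they did not (1.7% with the 20CBD mice above).

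Rorb, which encodes the activator RORβ, is a further gene for a receptor that binds ROREs (ENSMUSG00000036192, chromosome 19, 18907969 to 19088585). Rorb was near the limit of detection, with 3 to 20 counts and at most 1.09 CPM per library. It had 0.57 to 1.09 CPM in control mice, 0.18 to 0.53 CPM in 10CBD mice and 0.60 to 0.70 CPM in 20CBD mice. The 10CBD mice thus lay below both other groups, and the 20CBD mice lay within the control range. The log2 difference of Rorb was -1.25 (SE 0.38) at 10CBD and -0.34 (SE 0.36) at 20CBD, and neither passed the test (edgeR, adjusted p = 0.796 and 0.863).

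To compare levels between genes, CPM was divided by the joined length of all annotated exons in kilobases. For Nr1d1 this length includes the 52.3% of exon bases shared with Thra. Its level per kb and its rank thus depend on how reads in these exons were counted, which is not known here. In control kidney, Rora at 8.28 ± 0.19 and Nr1d1 at 8.26 ± 1.39 CPM per kb (SD, n = 4) did not differ beyond their spread, and Nr1d2 at 5.49 ± 0.83 overlapped with Nr1d1 at its upper end. Rorb followed far below at 0.074 CPM per kb. In 20CBD kidney the order was different, with Nr1d1 first at 20.7 ± 5.61 CPM per kb, and its lowest value of 12.4 was above the highest value of Nr1d2 (10.8). Nr1d2 at 9.55 ± 1.48 CPM per kb came next, and Rora at 7.18 ± 0.22 lay below it, with a highest value of 7.46 against a lowest of 7.57 for Nr1d2. The 10CBD mice were intermediate, with 14.4 ± 4.49 for Nr1d1, 8.09 ± 0.53 for Nr1d2 and 7.55 ± 1.26 CPM per kb for Rora. There the lowest value of Nr1d1 (8.71) was just above the highest of Nr1d2 (8.64), and Nr1d2 and Rora overlapped.

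The 2 repressors were then summed per mouse on the same scale and set against the activator Rora. Nr1d1 and Nr1d2 together had 13.8 ± 1.82 CPM per kb in control mice, 22.5 ± 4.997 in 10CBD mice and 30.3 ± 5.28 in 20CBD mice (SD, n = 4 each). The ratio of this sum to Rora was 1.35, 1.78, 1.82 and 1.69 in control replicates 1 to 4. It was 2.34, 2.84, 3.23 and 3.51 in the 10CBD mice and 4.70, 4.37, 3.16 and 4.65 in the 20CBD mice. Every treated mouse was above every control mouse, and the doses overlapped through 20CBD replicate 3, which had the lowest Nr1d1 of its group. The mean ratio was 1.66 ± 0.21, 2.98 ± 0.51 and 4.22 ± 0.72 in the Control, 10CBD and 20CBD groups. The ratio of Nr1d1 to Nr1d2 per kb was 1.52 ± 0.27, 1.76 ± 0.45 and 2.24 ± 0.78, with overlapping ranges. These ratios join genes that were chosen with their values known, are transcript levels per exon length, and were given no test. The exons that Nr1d1 shares with Thra limit the sums and ratios in the same way as the levels per kb.

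**Figure D2:**
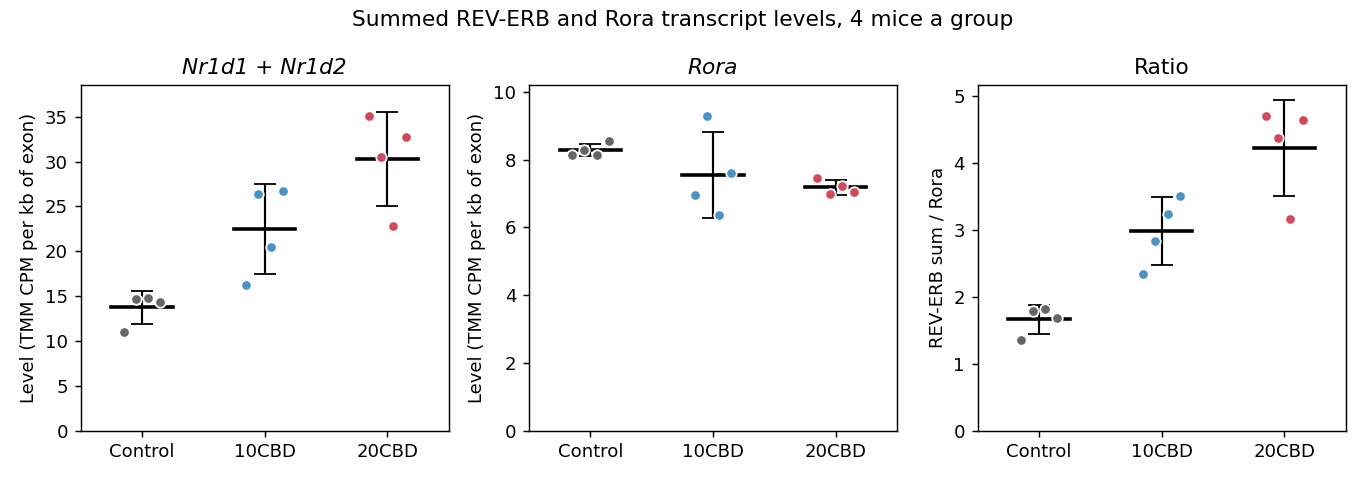
Summed transcript level of Nr1d1 and Nr1d2, level of Rora (both TMM CPM per kb of exon) and the ratio of the sum to Rora, with 1 point per mouse, group means as lines and SD as bars. The sum was 13.8, 22.5 and 30.3 and Rora 8.28, 7.55 and 7.18 CPM per kb in the Control, 10CBD and 20CBD groups, and the mean ratio was 1.66, 2.98 and 4.22.

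Clock genes with known ROREs, on which REV-ERB and ROR receptors act in other tissues, were examined next as the list Bmal1, Npas2, Clock, Nfil3 and Cry1. Like the gene lists that follow, it was chosen with earlier results of these data known. Its counts and medians beside those of all genes are therefore a description. At 20CBD 4 of the 5 fell and Clock did not pass the test, with a median log2 difference of -1.30 against 0.015 over all genes tested and 0.134% of all genes called as lower by edgeR. At 10CBD 1 of 5, Npas2, fell with edgeR, beside 0.0175% of all genes called as lower by edgeR. DESeq2 called 4 of 5 at this dose, beside 0.233% of all genes called in either direction. The median at 10CBD was -1.02 against 0.012 over all genes. The treated mice lay below all control mice for 4 of 5 genes at each dose, beside 1.64% of all genes at 10CBD and 2.63% at 20CBD.

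Bmal1, the partner of CLOCK in the activating complex and the best known REV-ERB target, had 28.0, 20.0, 19.7 and 20.1 CPM in control replicates 1 to 4. In 10CBD mice it had 10.9, 11.4, 9.17 and 11.9 CPM, and in 20CBD mice 9.43, 12.7, 10.3 and 5.76 CPM. No treated mouse reached the lowest control value. The log2 difference was -1.02 (SE 0.20) at 10CBD and -1.21 (SE 0.20) at 20CBD (edgeR, adjusted p = 0.229 and 0.0340), and control replicate 1 stood above the other control mice. Without control replicate 1, Bmal1 had a log2 difference of -1.06 at 20CBD (edgeR, adjusted p = 0.111), which is the only one of 12 fits that omitted 1 library in which the call was lost.

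Npas2, a paralog of Clock that also pairs with BMAL1, had 24.3, 19.6, 29.4 and 24.5 CPM in the control mice. The 10CBD mice had 9.10, 11.1, 6.69 and 9.63 CPM, and the 20CBD mice had 11.7, 11.9, 6.00 and 6.32 CPM. All treated mice were far below the control range. Npas2 fell by 1.42 on the log2 scale (SE 0.23) at 10CBD and by 1.44 (SE 0.23) at 20CBD (edgeR, adjusted p = 0.0792 and 0.0258). The call at 20CBD was made in each of the 12 fits that omitted 1 library, and the call at 10CBD was lost in 6 of them, without control replicate 1, 3 or 4 or without 10CBD replicate 1, 3 or 4. Within groups, Npas2 had r = 0.86 with the mitochondrial share. With that share as a covariate its log2 difference was -1.28 at 10CBD and -1.66 at 20CBD. Without the libraries with a low share it was -1.33 at 10CBD and -1.39 at 20CBD. The part of the share in these differences was not tested.

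Nfil3 encodes the D-box repressor E4BP4. It had 10.4, 8.30, 7.56 and 10.4 CPM in control mice, 5.97, 4.09, 3.79 and 4.75 CPM in 10CBD mice and 3.05, 4.07, 4.20 and 3.56 CPM in 20CBD mice. Both treated groups lay below the controls, with raw counts of 52 to 135 against 150 to 248. The log2 difference of Nfil3 was -0.98 (SE 0.19) at 10CBD and -1.30 (SE 0.19) at 20CBD (edgeR, adjusted p = 0.202 and 0.0144), and the call at 20CBD was made in each of the 12 fits that omitted 1 library.

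Cry1 encodes the cryptochrome that represses CLOCK and BMAL1 late in the cycle, and it is controlled by E-boxes as well as by ROREs. Its expression was 9.49, 7.35, 5.19 and 4.73 CPM in control mice, 3.80, 1.98, 2.44 and 4.05 CPM in 10CBD mice and 2.52, 2.04, 3.24 and 2.94 CPM in 20CBD mice. The treated mice lay below the control mice, which themselves differed by a wide margin. For Cry1 the log2 difference was -1.12 (SE 0.27) at 10CBD and -1.32 (SE 0.28) at 20CBD (edgeR, adjusted p = 0.596 and 0.0897), and the call at 20CBD was lost in 9 of 12 fits that each omitted 1 library, without any 1 of the control or 20CBD mice or without 10CBD replicate 3 (log2 difference -1.45 to -1.10). Clock had 53.0 to 84.3 CPM in control mice, 42.8 to 79.2 CPM in 10CBD mice and 56.0 to 80.6 CPM in 20CBD mice, overlapping ranges with log2 differences of -0.27 (SE 0.20) and -0.09 (SE 0.20) (edgeR, adjusted p = 0.897 and 0.943). Clock shares 11.9% of its exon bases with Tmem165.

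**Figure D3:**
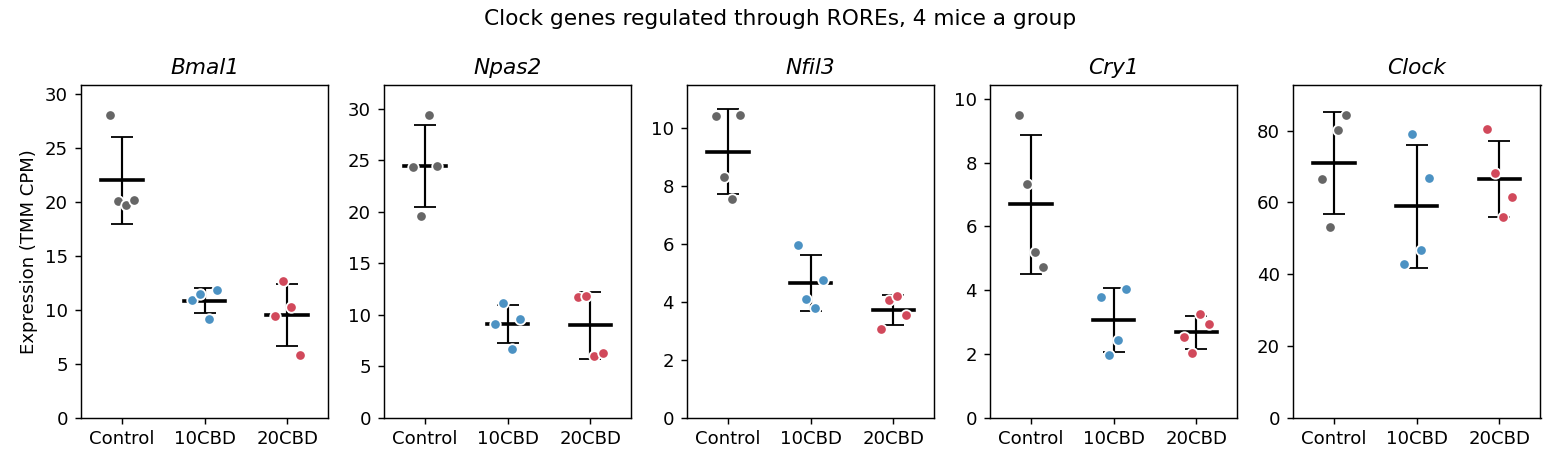
Expression of Bmal1, Npas2, Nfil3, Cry1 and Clock (TMM CPM, linear axes from 0) in the 4 mice of each group, with means as lines and SD as bars. For the first 4 genes all treated mice lie below all control mice, for example 5.76 to 12.7 CPM against 19.7 to 28.0 CPM for Bmal1 at 20CBD, and for Clock the groups overlap.

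**Figure D4:**
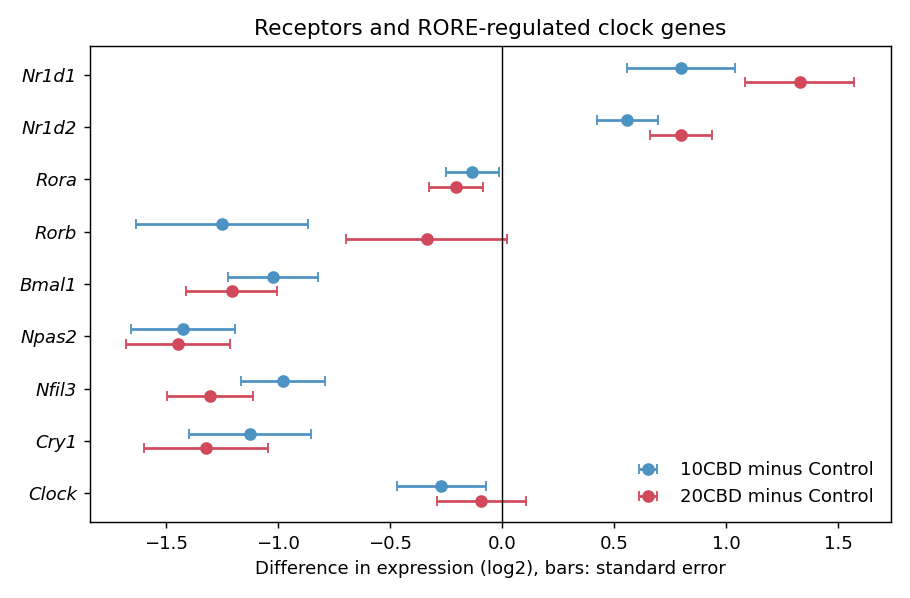
Log2 difference of each treated group from the control group for the 4 receptors and the 5 RORE-regulated clock genes, with bars for the standard error and a line at 0. Nr1d1 (0.80 and 1.33) and Nr1d2 (0.56 and 0.80) lie to the right of 0 and Bmal1, Npas2, Nfil3 and Cry1 to the left, between -0.98 and -1.44.

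Clock genes driven through E-boxes and D-boxes, the elements that also control Nr1d1, formed a list of 10 genes. At 20CBD 4 of them rose, and at 10CBD 2 rose, beside 0.169% and 0.0117% of all genes called as higher. The median log2 difference was 0.67 at 20CBD and 0.48 at 10CBD. Dbp, a D-box activator, rose from between 1.43 and 2.92 CPM in control mice to between 12.9 and 19.6 CPM in 10CBD mice and between 22.1 and 26.9 CPM in 20CBD mice. Its log2 difference was 2.75 at 10CBD and 3.35 at 20CBD (edgeR, adjusted p = 1.9e-05 and 1.3e-06). Per3, a period gene, rose by 1.08 and 1.39 (edgeR, adjusted p = 0.0184 and 0.00124), with the call at 10CBD lost without control replicate 1 or 4 or 10CBD replicate 3. The repressor gene Bhlhe41 (DEC2) had 0.68 at 10CBD and 1.46 at 20CBD (edgeR, adjusted p = 0.796 and 0.0144). Ciart, a repressor of CLOCK and BMAL1, had 0.72 and 1.40 (edgeR, adjusted p = 0.812 and 0.0580), and its call at 20CBD was lost in 6 of 12 such fits, those without any 1 of the control mice or without 20CBD replicate 3 or 4.

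Transcripts of the corepressors and coactivators that act at ROREs did not pass the test after adjustment. In the list of 11 corepressor and coactivator genes, with Ncor1 and Hdac3 among them, edgeR and DESeq2 called 0 at either dose. Over all genes edgeR called 0.0291% at 10CBD and 0.303% at 20CBD, and DESeq2 called 0.233% and 1.06%. An unadjusted p under 0.05 in edgeR was found for 0 of the 11 at 10CBD and 2 at 20CBD, beside 5.67% and 8.45% of all genes. The median log2 difference of this list was -0.14 at 10CBD and -0.11 at 20CBD. The largest values at 20CBD were 0.36 for Gps2, a subunit of the NCoR complex, and -0.34 for Nrip1, a corepressor of nuclear receptors (edgeR, adjusted p = 0.501 and 0.530).

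Among 10 genes for the synthesis and breakdown of heme, the REV-ERB ligand, 1 rose at 20CBD, beside 0.169% of all genes called as higher by edgeR. At 10CBD edgeR called 0 of the 10, with 3 at an unadjusted p under 0.05 beside 5.67% of all genes, and DESeq2 called 2 beside 0.233%. Alas1, the rate-limiting enzyme of heme synthesis and a clock-controlled gene, had 55.8 to 72.1 CPM in control mice, 75.4 to 109 CPM in 10CBD mice and 97.8 to 120.2 CPM in 20CBD mice. Every treated mouse was above every control mouse, and the log2 difference of Alas1 was 0.54 (SE 0.14) at 10CBD and 0.72 (SE 0.14) at 20CBD (edgeR, adjusted p = 0.679 and 0.0567). Its call was lost in 7 of 12 fits that each omitted 1 library, those without any 1 of the control mice or without 20CBD replicate 1, 2 or 4. Alad, the next enzyme of the pathway, had 0.47 at 20CBD (edgeR, adjusted p = 0.740), and the median of the list was 0.12 at 10CBD and 0.13 at 20CBD. The 2 genes of the list with all 10CBD mice below all control mice, beside 1.64% of all genes, were Hmox1 and Uros. Both are named here after their values were seen. At 20CBD Uros alone lay below all control mice, beside 2.63% of all genes, and Hmox1 overlapped with the control mice. Hmox1, the inducible enzyme of heme breakdown, had 45.5 to 73.9 CPM in control mice, 26.4 to 37.2 CPM in 10CBD mice and 37.9 to 59.7 CPM in 20CBD mice, with log2 differences of -0.88 (SE 0.18) and -0.38 (SE 0.18) (edgeR, adjusted p = 0.305 and 0.590). Uros, an enzyme of heme synthesis, had 16.2 to 19.0 CPM in control mice, 12.0 to 15.2 CPM in 10CBD mice and 12.2 to 15.3 CPM in 20CBD mice, with log2 differences of -0.39 and -0.37 (edgeR, adjusted p = 0.812 and 0.438).

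The kinases, ubiquitin ligases and deubiquitinases that act on REV-ERB and clock proteins were a list of 10 genes, of which 1 rose at 20CBD, beside 0.169% of all genes called as higher. At 10CBD edgeR called 0 of them, with 0 at an unadjusted p under 0.05 and 0 called by DESeq2. Over all genes these shares were 0.0291%, 5.67% and 0.233%, in the same order. Usp2, a deubiquitinase of clock proteins, had 80.2 to 107 CPM in control mice, 116 to 123 CPM in 10CBD mice and 124 to 227 CPM in 20CBD mice, and its log2 difference was 0.34 (SE 0.16) at 10CBD and 0.81 (SE 0.16) at 20CBD (edgeR, adjusted p = 0.870 and 0.0771). The call for Usp2 was made in 3 of 12 fits that each omitted 1 library, and was kept only without 10CBD replicate 1 or 2 or 20CBD replicate 1. Csnk1e, a casein kinase of the clock, had 0.51 at 20CBD (edgeR, adjusted p = 0.597), and the list had medians of -0.022 and -0.11.

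Of 18 metabolic and inflammatory genes known as REV-ERB or ROR targets in other tissues, 12 passed the filter, and Elovl3, Il6, Ccl2, Fgf21, Cyp8b1 and Nlrp3 did not. edgeR called 0 of the 12 at either dose, with 4 at an unadjusted p under 0.05 at each dose, beside 5.67% and 8.45% of all genes, and DESeq2 called 0 at 10CBD and 3 at 20CBD, beside 1.06% of all genes. The median log2 difference was 0.082 at 10CBD and 0.32 at 20CBD. Cidec, a lipid droplet gene, had the largest value at 20CBD, -3.02 (SE 0.78), but its control mice ranged from 1.66 to 15.6 CPM (edgeR, adjusted p = 0.253). Adipocyte markers moved with Cidec, and their summed level was 98.0 to 264 CPM in control mice, 68.0 to 136 CPM in 10CBD mice and 67.9 to 114 CPM in 20CBD mice, with 0 of the 5 tested genes called by edgeR at either dose (2 and 5 at an unadjusted p under 0.05) and 1 called by DESeq2 at 20CBD. Fabp4 had the highest level of these markers, with means of 149, 88.9 and 89.2 CPM in the Control, 10CBD and 20CBD groups, and weighed most in the sum. The median log2 difference of the 5 tested adipocyte genes was -1.61 at 10CBD and -3.17 at 20CBD. All 6 adipocyte markers were above 0 in at least 1 mouse of each group, and their part in the value of Cidec was not tested. Cx3cr1, a chemokine receptor of macrophages, had 1.27 at 20CBD (SE 0.60), with values of 2.92 to 5.77 CPM in control mice and 4.98 to 21.8 CPM in 20CBD mice (edgeR, adjusted p = 0.592).

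Whether the members moved together from mouse to mouse was examined after the group means were subtracted, over 12 mice and 18 pairs of a member with another member or a RORE-regulated clock gene. None of the 18 pairs had a Benjamini-Hochberg adjusted p under 0.1 for Pearson's r or Spearman's rho. Nr1d1 and Clock had the highest r at 0.74 (exact permutation test within groups over 13824 arrangements, two-sided p = 0.0187, adjusted p = 0.297) with rho 0.77 (p = 0.0260, adjusted p = 0.179), and r was 0.69 without the 2 mice farthest from the median of Nr1d1, 10CBD replicate 1 and 20CBD replicate 3. Both genes were lower in the 4 libraries with a low mitochondrial share, where Clock lay 0.24 to 0.41 below its group means on the log2 scale. The r of Nr1d1 and Clock was 0.23 with the mitochondrial share as a covariate and 0.63 without those libraries. Rora and Clock had r = 0.71 (exact permutation test, p = 0.0330, adjusted p = 0.297) with rho 0.75 (p = 0.0399, adjusted p = 0.179), and r = 0.64 without the 2 mice farthest from the median of Rora. Within groups, the mitochondrial share itself had r = 0.86 with Npas2, 0.84 with Clock, 0.79 with Nr1d1 and 0.44 with Rora. It had r = 0.30 with Bmal1, -0.26 with Nfil3, -0.31 with Nr1d2 and -0.43 with Cry1. For the 2 repressors, Nr1d1 and Nr1d2, r was 0.10 (exact permutation test, p = 0.764, adjusted p = 0.859) with rho 0.27 (p = 0.400, adjusted p = 0.713), and r was 0.41 without the 2 farthest mice. Nr1d2 and Rora had r = 0.33 (exact permutation test, p = 0.0601, adjusted p = 0.345) with rho 0.69 (p = 0.0175, adjusted p = 0.179), the smallest unadjusted p for rho of the 18 pairs, and r = 0.53 without the 2 farthest mice. Nr1d1 and Rora had r = 0.43 (exact permutation test, p = 0.380, adjusted p = 0.684) with rho 0.49 (p = 0.201, adjusted p = 0.603), and r = 0.60 without the 2 farthest mice. Nr1d1 and Bmal1 had r = -0.19 (exact permutation test, p = 0.594, adjusted p = 0.764) with rho -0.063 (p = 0.854, adjusted p = 0.905), and r = -0.13 without the 2 farthest mice. With Npas2, Nr1d1 had r = 0.50 (exact permutation test, p = 0.182, adjusted p = 0.467) and rho 0.62 (p = 0.0383, adjusted p = 0.179). With Nfil3 it had r = -0.59 (exact permutation test, p = 0.0785, adjusted p = 0.345) and rho -0.53 (p = 0.116, adjusted p = 0.418). With Cry1 it had r = -0.53 (exact permutation test, p = 0.106, adjusted p = 0.345) and rho -0.38 (p = 0.281, adjusted p = 0.636). Without the 2 farthest mice these r were 0.46, -0.14 and -0.36.

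**Figure D5:**
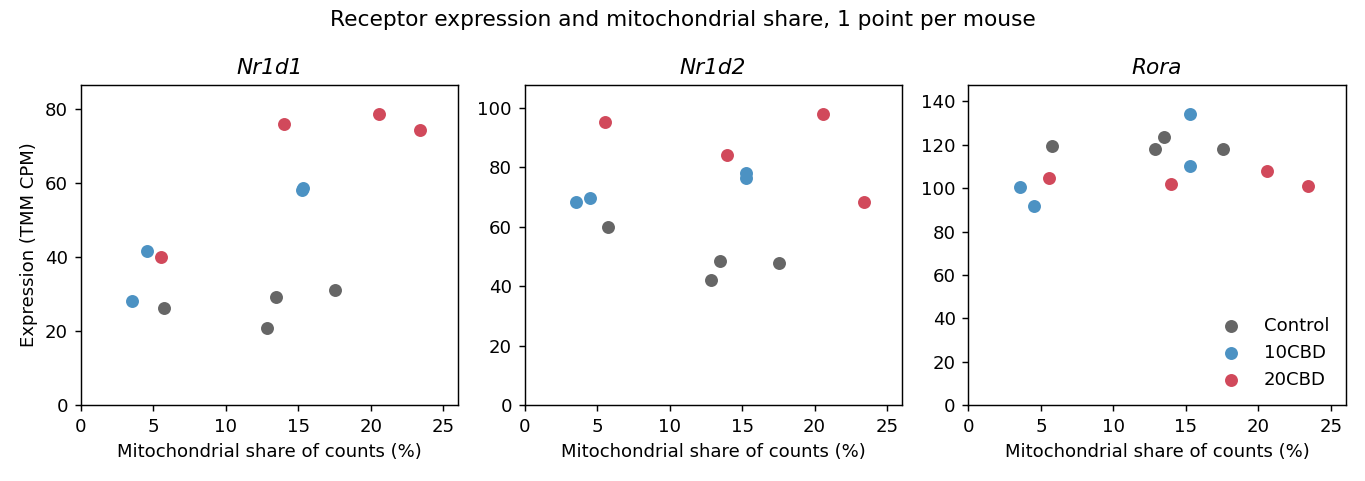
Expression of Nr1d1, Nr1d2 and Rora (TMM CPM) against the share of counts on mitochondrial genes (percent), with 1 point per mouse coloured by group. Of the 4 mice under 10%, 10CBD replicate 1 and 20CBD replicate 3 have the lowest Nr1d1 of their groups (28.2 and 40.1 CPM), and the same 20CBD mouse has 95.2 CPM of Nr1d2.

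The genes whose expression was most like that of each member over the 12 mice, again after group means were subtracted, differed between the members. Over the 17103 tested genes with a symbol, Nr1d1 had the highest r with Gm3604 (0.97), Socs5 (0.96) and Cobl (0.95) and the lowest with Nubp2 (-0.97), Gm7432 (-0.97) and Gm42067 (-0.95), and 95% of genes had an r with it from -0.85 to 0.84. For Nr1d2 the highest were Zpbp (0.95), Cpeb3 (0.95) and Usp7 (0.91) and the lowest Gm6542 (-0.93), Gm56840 (-0.92) and Lcp2 (-0.92), with 95% of genes from -0.64 to 0.63. Rora was closest to Atxn7 (0.95), 4933413C19Rik (0.93) and Spata7 (0.92) and farthest from Plac8 (-0.94), Iffo1 (-0.94) and Iqank1 (-0.92), with 95% of genes from -0.71 to 0.71. Gm3604, Zpbp, Gm56840 and 4933413C19Rik were near the limit of detection, with means of 0.63, 0.46, 0.64 and 0.76 CPM. The genes named are the extremes of 17103 over 12 mice, and their r values were not tested. The same libraries enter every r value, so that depth, mitochondrial share and tissue sample are shared by all genes of a mouse. The wide range for Nr1d1 shows that many genes varied together with it.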

How the data were processed

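Kidney poly(A) RNA of 12 mice was sequenced, 1 library per mouse. The authors trimmed reads with Flexbar, aligned them to GRCm39 with STAR 2.7.5c and counted them per Ensembl gene with HTSeq 1.99.2, per the submitters' processing notes and the paper's methods, and deposited raw counts per gene. The annotation release, strand setting and use of molecular identifiers are not given in the sources used here. HTSeq's summary lines (12.1% to 19.9% of reads on no gene, 4.72% to 5.29% ambiguous) were left out. GENCODE vM39 supplied symbols and exon lengths for 99.0% of identifiers. No libraries were identical (0 pairs), and 0 columns of samples were left unused.

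Genes were filtered with filterByExpr and tested with edgeR 4.0.16 in R 4.3.3 (TMM, quasi-likelihood, 1 fit of the 3 groups to 17163 genes), and were called at a Benjamini-Hochberg adjusted p under 0.1, the study's threshold. The fit was tested on simulated data, where the share of false calls exceeded the threshold of 0.1 with edgeR and more so with DESeq2. Counts of 15417867 to 23532088 per library give little counting error for the members (493 counts or more), so tests rest on the spread between mice. Alternatives were DESeq2 1.42.0, RLE scaling, no filter on low counts, a prior count of 0.5 against 2, a model of 2 groups at a time, a block for replicate number, the mitochondrial share as a covariate and each library left out. Leaving out the 4 libraries with a low mitochondrial share was added after seeing the data.

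The members, the gene lists and their tests were chosen with earlier results of these data known. Named genes are the members, all genes of the RORE lists, genes that overlap a member, and the 3 nearest and farthest genes of each member. For each other list outside the tissue markers, these are the genes that edgeR called and the 2 largest changes at 20CBD with at least 1 CPM on average. Of the lists for tissues only examples are named, and Hmox1, Uros, Pck1 and G6pc1 were added after their values were seen. Of the lists for tissues, edgeR called 0 of 9 kidney tubule and podocyte genes, 0 of 6 immune, 0 of 4 endothelial and 0 of 1 adrenal cortex genes tested at either dose, while 2, 0, 1 and 0 of them had an unadjusted p under 0.05 at 20CBD and DESeq2 called 1 kidney gene there. Over all genes, edgeR called 0.0291% at 10CBD and 0.303% at 20CBD. At 20CBD, 8.45% of all genes had an unadjusted p under 0.05 in edgeR and DESeq2 called 1.06%. No skeletal muscle gene passed the filter. Some genes of these families are not reported here.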

Additional observations from a re-analysis of the deposited data

Results flagged for a closer look

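In 27 groups of 4 mice, made up of the receptors and RORE-regulated clock genes in each group, 2 held a mouse whose gap to the nearest other mouse exceeded Dixon's 95% critical value for this gap as a share of the group's range. Chance gives about 1 in 20 groups. Nr1d1 in 20CBD replicate 3 was 40.1 CPM, whereas the remaining 3 mice had 74.4 to 78.5 CPM, and this library also had a mitochondrial share of 5.54%. Bmal1 in control replicate 1 was 28.0 CPM, whereas the remaining 3 had 19.7 to 20.1 CPM, and without it the difference of Bmal1 at 20CBD did not pass edgeR's threshold.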

How the results depend on the processing

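No called value changed sign. DESeq2 called 40, 182 and 12 genes for 10CBD against control, 20CBD against control and 20CBD against 10CBD, where edgeR called 5, 52 and 0, and omitting the filter on low counts gave 331, 416 and 256. The mitochondrial covariate gave 15, 1386 and 62 calls, and leaving out the 4 libraries with a low mitochondrial share gave 26 and 107 for the doses against control. With 1 library left out, the calls ranged from 2 to 8, from 14 to 54 and from 0 to 0. At 10CBD 2 genes were called without control replicate 1 or 10CBD replicate 3, 3 without control replicate 3 or 4 or 10CBD replicate 1 or 4, and 8 without 10CBD replicate 2. At 20CBD 14 genes were called without control replicate 1, 2 or 4, 32 without control replicate 3 and 19 to 29 without 20CBD replicate 2, 3 or 4. Of the RORE-regulated clock genes at 10CBD, where edgeR called 1, DESeq2 and no filter gave 4, the mitochondrial covariate 3, and only the groups compared or no low-share libraries 2; the range with 1 library left out was 0 to 2 at 10CBD (2 without 20CBD replicate 4) and 2 to 4 at 20CBD, where the value of 2 came without control replicate 1. Rora, which was not called, moved to 0.024 at 10CBD and -0.23 between the doses without the low-share libraries, and Nr1d1 between the doses moved from 0.53 to 0.23 with the mitochondrial covariate. The causes were not tested.

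The replicate numbers gave no pairing of mice, since mice with the same number correlated at -0.33 to 0.32 and the best match had the same number in 4 of 24 cases. With the replicate block, 4, 27 and 0 genes were called (24 of the 27 among the 52), 0 RORE-regulated clock genes at 10CBD and 3 at 20CBD, and Nr1d2 at 20CBD was not called (log2 difference 0.80). With 4 mice per group, low transcripts such as Rorb, at 3 to 20 counts, are limited by depth.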
